A study of Sus scrofa with 30 samples.

Results

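The miR-148 and miR-152 family was followed in plasma of irradiated Göttingen minipigs. Its members were taken by name, as the ssc-miRNAs (pig miRNAs) of the count table named ssc-miR-148 or ssc-miR-152 with any letter or arm after the number. This gave 5 of 411 ssc-miRNAs, namely ssc-miR-148a-3p, ssc-miR-148a-5p, ssc-miR-148b-3p, ssc-miR-148b-5p and ssc-miR-152. A hairpin precursor is cut into a 3p and a 5p arm, and the table holds both arms for miR-148a and miR-148b and a single row for miR-152.

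Plasma small RNA came from 3 male Göttingen minipigs, which were 4 months old when they received total body irradiation (TBI) of 2.2 Gy from a cobalt source, a dose lethal to most animals. These animals were the control arm of a countermeasure study and received dextrose injections in place of a drug. They were given antibiotics when neutrophil counts were low, were bled repeatedly under isoflurane, and none survived to the end of that study. Each minipig gave 1 library a week (C7) and a day (C1) before TBI and 8 after it, the first at 6 h (0d) and the rest on the day that their names give (1d, 3d, 7d, 10d, 14d, 17d, 20d). No unirradiated animals were sequenced, so that C7 and C1 of the same animals were pooled as pre-TBI and time after TBI cannot be told apart from age, repeated bleeding and care. The study named 0d to 7d Early, the 10d and 14d libraries Mid, 17d Late and 20d LR (Late Regression), phases that it took from a principal component analysis of these same libraries. They are therefore not independent of the values, and every phase was compared with the same pre-TBI libraries.

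miRNAs of this family are known to repress the DNA methyltransferase genes DNMT1 and DNMT3B, and HLA-G. miR-148a is abundant in liver, where it is known to repress the low density lipoprotein receptor and the cholesterol exporter ABCA1. The 3p arms of miR-148a and miR-148b and the mature miR-152 are known to share a seed, the bases 2 to 8 that pair with a target. The 5p arms carry other seeds and therefore have other targets. The seed of the family is shown because it defines it, together with that of miR-130a-3p, whose letters are shifted by 1 base. Both are written 5′ to 3′ as in the study's supplementary list, and the capitals mark the seed, which is all that is shown.

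miR-148a-3p: CAGUGCA

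miR-130a-3p: AGUGCAA

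In the RefSeq annotation of the pig genome (Sscrofa11.1, used for names and neighbours only), all 3 family genes were found. MIR148B lay within COPZ1 and MIR152 within COPZ2, which encode paralogous subunits of the COPI vesicle coat. MIR148A lay within no other gene. One of the protein-coding neighbours of each was a member of the NFE2 transcription factor family, with NFE2L3 beside MIR148A, NFE2 beside MIR148B and NFE2L1 beside MIR152.

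Of 30 libraries, 24 were used. The other 6, all of minipig 3 from 3d to 20d, held 0 to 17 counts, and so minipig 3 entered only at C7, C1, 0d and 1d. The libraries used held 24341 to 550316 counts with a median of 240612, in groups of 6 (pre-TBI), 10 (Early), 4 (Mid), 2 (Late) and 2 (LR). The 5 shallowest libraries held 24341 counts at C7 of minipig 1, 29159 at 17d of minipig 1, 35762 at 10d of minipig 2, 59291 at 10d of minipig 1 and 63441 at 17d of minipig 2. Every library used had at least 4 counts for each member. Replicates were separate animals, but the time points of an animal were not separate animals.

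ssc-miR-148a-3p was the most abundant member, with a mean of 10.65 log2 CPM (counts relative to the library's size, TMM scaled, on a log2 scale) over the 24 libraries and rank 96 of 411. ssc-miR-148a-5p followed with a mean of 9.32 log2 CPM (rank 173), ssc-miR-148b-3p with 8.30 (rank 276), ssc-miR-152 with 7.98 (rank 304) and ssc-miR-148b-5p with 7.13 (rank 355). Mature miRNAs have nearly equal lengths, so these levels were compared without a length term. The ranges overlapped between all neighbours in this order, which ran from 9.39 to 12.42 log2 CPM for ssc-miR-148a-3p, from 7.67 to 11.52 for ssc-miR-148a-5p, from 6.54 to 10.82 for ssc-miR-148b-3p, from 6.98 to 10.28 for ssc-miR-152 and from 5.36 to 9.42 for ssc-miR-148b-5p.

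Together the 5 members made up 0.120% of the counts at 0d of minipig 1 (95% Wilson interval 0.106% to 0.136%, counting error only) and 1.21% at C7 of minipig 3 (1.18% to 1.25%), the extremes of the 24 libraries. The second highest share was 0.800% at 10d of minipig 2 (0.713% to 0.897%). The highest share thus belonged to a pre-TBI library and the second highest to a Mid library. The third highest was an Early one, 0.667% at 3d of minipig 2 (0.636% to 0.699%).

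**Figure D1:**
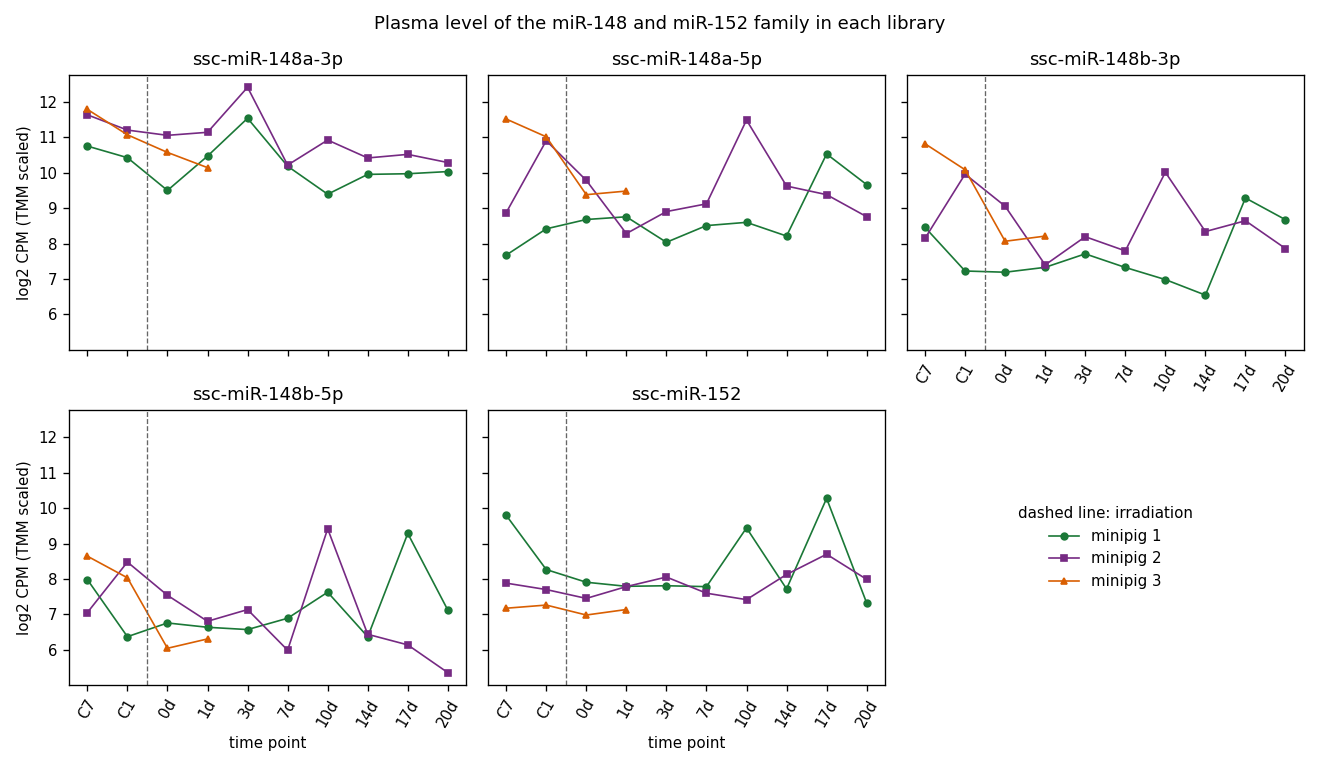
Level of each member in log2 CPM (vertical axis, TMM scaled) at each time point (horizontal axis), with 1 point per library and 1 line per minipig. ssc-miR-148a-3p was highest at 3d in minipigs 1 and 2 (11.54 and 12.42), while ssc-miR-148a-5p and ssc-miR-148b-3p of minipig 3 started at 11.52 and 10.82 and lay at 9.38 and 8.06 at 0d.

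Between the 2 sampling days before TBI, no member passed an adjusted p of 0.05 (edgeR, Benjamini-Hochberg) and none an unadjusted p of 0.05, as against 0% and 0.73% of all 411 ssc-miRNAs. DESeq2 called none either. The log2 differences C1 minus C7 were between -0.68 (SE 0.62, ssc-miR-152) and 0.22 (SE 0.83, ssc-miR-148a-5p), each with an adjusted p of 0.997. ssc-miR-148a-5p was at 7.67 and 8.42 log2 CPM in minipig 1, 8.87 and 10.91 in minipig 2, and 11.52 and 11.02 in minipig 3, at C7 and C1. Minipig 1 was lowest and minipig 3 highest on both days, and these were 4, 40, 107, 553, 1668 and 989 counts in the same order.

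The first question was how the family stood in the first week after TBI. At Early all 5 members had a log2 fold change below 0, with a median of -1.29 against 0.02 over all 411 ssc-miRNAs. The 3 members ssc-miR-148a-5p, ssc-miR-148b-3p and ssc-miR-148b-5p passed an unadjusted p of 0.05, all of them lower, as did 18.7% of all ssc-miRNAs in either direction and 13.6% in the lower direction. None passed the adjusted p of 0.05 with edgeR, and 0% of all ssc-miRNAs did. DESeq2 called those same 3 members at an adjusted p of 0.05, with values from 0.00811 to 0.0461, as did 8.09% of all ssc-miRNAs with DESeq2. With the minipig as a block in edgeR, the median of the 5 was -0.93 and 2 of them, ssc-miR-148b-3p (-1.31, adjusted p = 0.141) and ssc-miR-148b-5p (-1.29, adjusted p = 0.155), passed the unadjusted p, as against 22.4% of all. ssc-miR-148a-5p did not (-0.93, adjusted p = 0.223).

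ssc-miR-148b-3p, the arm that carries the family seed, was at 7.22 (lowest), 9.21 (median) and 10.82 log2 CPM (highest) in the 6 pre-TBI libraries. In the 10 Early libraries it was at 7.19, 7.75 and 9.06. All Early libraries lay below the pre-TBI median, the lowest of them just under the pre-TBI range, and the groups overlapped. Its log2 fold change was -1.73 (SE 0.47, adjusted p = 0.0549, edgeR). The mean Early level was lower than the mean pre-TBI level in 3 of 3 minipigs, by log2 differences of -0.45 in minipig 1, -0.94 in minipig 2 and -2.31 in minipig 3.

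ssc-miR-148b-5p, the opposite arm of the same hairpin, was at 6.37, 8.01 and 8.65 log2 CPM (lowest, median, highest) before TBI. It was at 5.99, 6.70 and 7.54 at Early. All Early libraries were below the pre-TBI median, and the groups overlapped. This gave a log2 fold change of -1.29 (SE 0.45, adjusted p = 0.115, edgeR), with differences of means of -0.46, -0.90 and -2.16 in minipigs 1, 2 and 3.

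ssc-miR-148a-5p was at 7.67, 9.89 and 11.52 log2 CPM before TBI. At Early it was at 8.04, 8.83 and 9.79. The lowest value of all was thus a pre-TBI library of minipig 1, and the groups overlapped. Its log2 fold change was -1.42 (SE 0.49, adjusted p = 0.115, edgeR), with differences of means of 0.45, -0.87 and -1.84 in minipigs 1, 2 and 3, so that the sign was not shared by all animals.

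These 3 results rested on minipig 3. Without minipig 3, 0 members passed the unadjusted p of 0.05 at Early (8.52% of all ssc-miRNAs). Without its pre-TBI libraries alone 1 member did (15.6% of all), which was ssc-miR-152 (log2 fold change -0.86, adjusted p = 0.303). That of ssc-miR-148b-3p was -0.99 (adjusted p = 0.543) without the animal and -0.95 (adjusted p = 0.348) without its pre-TBI libraries. That of ssc-miR-148a-5p was -0.76 and -0.63, and that of ssc-miR-148b-5p was -0.86 and -0.99. Without the C7 library of minipig 1, which held the fewest counts, ssc-miR-148b-3p (adjusted p = 0.0292) and ssc-miR-148a-5p (adjusted p = 0.0379) were called by edgeR as lower at Early, as 6.57% of all ssc-miRNAs were called in either direction.

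ssc-miR-148a-3p, the most abundant member, stood apart from these. It was at 10.43, 11.14 and 11.79 log2 CPM before TBI and at 9.50, 10.52 and 12.42 at Early, so the Early libraries reached past the pre-TBI range at both ends. Its log2 fold change of -0.27 (SE 0.35, adjusted p = 0.667, edgeR) became 0.02 with C1 only as the baseline and 0.02 without minipig 3. ssc-miR-152 was at 7.18, 7.79 and 9.80 log2 CPM before TBI and at 6.98, 7.79 and 8.06 at Early, with a log2 fold change of -0.45 (SE 0.36, adjusted p = 0.449).

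**Figure D2:**
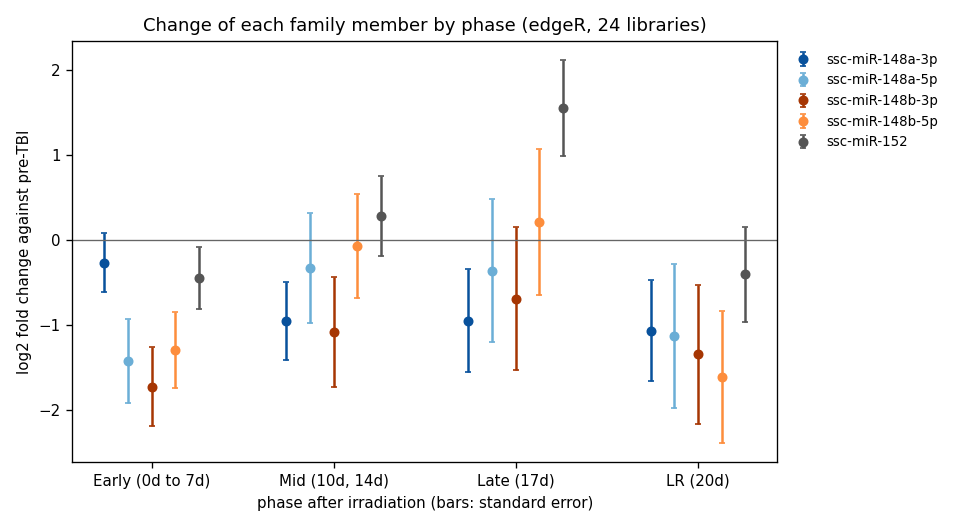
Log2 fold change of each member against pre-TBI (vertical axis) in the 4 phases (horizontal axis), from 1 edgeR fit over 24 libraries, with bars of 1 standard error. The lowest point is ssc-miR-148b-3p at Early (-1.73) and the highest ssc-miR-152 at Late (1.56), and no point passed an adjusted p of 0.05.

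At Mid, the question was whether the family differed from pre-TBI at 10d and 14d. The median log2 fold change was -0.33 against 0.05 over all ssc-miRNAs, and -0.10 with the minipig as a block. There 1 member, ssc-miR-148a-3p, passed the unadjusted p of 0.05, as did 5.35% of all ssc-miRNAs. None passed the adjusted p with edgeR or DESeq2, where 0% of all ssc-miRNAs passed with edgeR. ssc-miR-148a-3p was at 9.39 and 9.96 log2 CPM in minipig 1 and at 10.92 and 10.42 in minipig 2, at 10d and 14d. Of these 4 libraries, 3 lay below the lowest pre-TBI library (10.43), and that of minipig 2 at 10d lay within the pre-TBI range. Its log2 fold change was -0.95 (SE 0.46, adjusted p = 0.808, edgeR), and it missed the unadjusted p of 0.05 without minipig 1 (-0.83) and without minipig 3 (-0.78). Within minipigs 1 and 2 the mean differences were -0.92 and -0.75.

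In the other miR-148 arms the 10d library of minipig 2 was the highest of the 4 Mid libraries. ssc-miR-148b-3p was at 6.98 and 6.54 log2 CPM in minipig 1 and at 10.01 and 8.34 in minipig 2, with a log2 fold change of -1.08 (SE 0.64, adjusted p = 0.825). Minipig 1 lay below and minipig 2 within the pre-TBI range. ssc-miR-148a-5p was at 8.60 and 8.21 in minipig 1 and at 11.49 and 9.62 in minipig 2, with a log2 fold change of -0.33 (SE 0.64), which was 0.20 with the minipig as a block. ssc-miR-148b-5p (-0.07, SE 0.61) and ssc-miR-152 (0.28, SE 0.47) each had an adjusted p of 0.978.

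At Late the member farthest from pre-TBI was ssc-miR-152. It was at 10.28 log2 CPM in minipig 1 and 8.70 in minipig 2, from 26 counts in each library. The 6 pre-TBI libraries ran from 7.18 over a median of 7.79 to 9.80. The library of minipig 2 lay within that range, whose top was C7 of minipig 1 with 18 counts, and so the groups overlapped. At Late its log2 fold change was 1.56 (SE 0.56, adjusted p = 0.118, edgeR), and the mean differences within minipigs 1 and 2 were 1.24 and 0.91. It was the only member past the unadjusted p of 0.05 at Late, where 22.6% of all ssc-miRNAs passed, and no member passed the adjusted p, which 4.38% of all ssc-miRNAs did. DESeq2 gave ssc-miR-152 an adjusted p of 0.0858.

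The 4 highest levels of ssc-miR-152 (10.28, 9.80, 9.44 and 8.70 log2 CPM) were in 4 of the 5 shallowest libraries. With every library thinned to 24341 counts the log2 fold change at Late was 1.55 (SE 0.66, adjusted p = 0.22, edgeR). Without the C7 library of minipig 1, ssc-miR-152 rose at Late (1.77, adjusted p = 0.0177, edgeR, a call that 8.76% of all ssc-miRNAs had), and with C1 only as the baseline it rose by 1.88 (adjusted p = 0.046, 5.84% of all). With C7 only it was at 1.05 (adjusted p = 0.566), and without minipig 3 at 1.03 (adjusted p = 0.364).

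The 4 other members did not share a direction at Late. ssc-miR-148a-3p was at 9.97 and 10.52 log2 CPM in minipigs 1 and 2 (-0.95, SE 0.61, adjusted p = 0.34). ssc-miR-148a-5p was at 10.53 and 9.38 (-0.36, SE 0.84), and ssc-miR-148b-3p at 9.29 and 8.64 (-0.69, SE 0.85). With the minipig as a block these 2 values were 0.57 and 0.02. ssc-miR-148b-5p was at 9.29 log2 CPM from 13 counts in minipig 1 and at 6.14 from 4 counts in minipig 2 (0.21, SE 0.86), above and below every pre-TBI library.

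At LR, all 5 log2 fold changes were below 0, with a median of -1.13 against -0.01 over all ssc-miRNAs. Minipig 3, whose pre-TBI levels of ssc-miR-148a-5p and ssc-miR-148b-3p were the highest, had no LR library, and with the minipig as a block the median was -0.55. No member passed an unadjusted p of 0.05 with edgeR, which 5.6% of all ssc-miRNAs did, or the adjusted p (0% of all), and DESeq2 had 1 unadjusted, as against 14.2% of all, and 0 adjusted. ssc-miR-148a-3p was at 10.03 log2 CPM in minipig 1 and 10.29 in minipig 2, from 348 and 897 counts. Both lay below all 6 pre-TBI libraries, a pattern that 2.68% of all ssc-miRNAs had. This was a log2 fold change of -1.07 (SE 0.60, adjusted p = 0.593, edgeR), and the differences within minipigs 1 and 2 were -0.56 and -1.13.

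ssc-miR-148b-5p was at 7.12 and 5.36 log2 CPM at LR (-1.61, SE 0.78, adjusted p = 0.593), with the library of minipig 2 below every pre-TBI library. ssc-miR-148b-3p was at 8.67 and 7.86 (-1.35, SE 0.81), ssc-miR-148a-5p at 9.67 and 8.76 (-1.13, SE 0.85) and ssc-miR-152 at 7.32 and 7.99 (-0.40, SE 0.56), all within the pre-TBI range. With the minipig as a block ssc-miR-148a-5p was at -0.17 and ssc-miR-148b-3p at -0.49. Against their own pre-TBI means, ssc-miR-148a-5p differed by 1.62 in minipig 1 and -1.13 in minipig 2, and ssc-miR-148b-3p by 0.83 and -1.20. Both were thus higher in one animal and lower in the other. ssc-miR-152 differed by -1.71 in minipig 1 and 0.20 in minipig 2, and ssc-miR-148b-5p by -0.06 and -2.41.

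Between 17d and 20d, ssc-miR-152 went from 10.28 to 7.32 log2 CPM in minipig 1 and from 8.70 to 7.99 in minipig 2. Both 20d libraries were lower than both 17d libraries, an order of 2 against 2 libraries that was not counted over all ssc-miRNAs. The 17d libraries were shallow (29159 and 63441 counts in minipigs 1 and 2) and the 20d libraries deep (401408 and 550316). For LR against Late ssc-miR-152 had a log2 fold change of -1.96 (SE 0.70, adjusted p = 0.0961, edgeR). DESeq2 called it (adjusted p = 0.0438), as it did 16% of all. Without minipig 1 it was -0.66 (adjusted p = 0.797). It was the only member past the unadjusted p of 0.05, as against 32.1% of all ssc-miRNAs, and no member passed the adjusted p, which 0.73% of all did.

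At single time points, 9 of 40 member and time point pairs had an unadjusted p under 0.05 with edgeR and 0 an adjusted p under 0.05, while DESeq2 had 19 and 1. Over all ssc-miRNAs and the 8 time points, 16.1% and 2.77% of the DESeq2 tests passed these limits. With edgeR, of all ssc-miRNAs, 8.52% passed the unadjusted p at 0d, 12.2% at 1d and 8.52% at 3d. On 7d the share was 8.27%, on 10d 7.3%, on 14d 9%, on 17d 23.8% and on 20d 7.06%. The adjusted p was passed by 1.22% at 3d, by 0.243% at 14d, by 4.87% at 17d, by 0.73% at 20d and by 0% otherwise. ssc-miR-148a-3p accounted for 3 of the 9 pairs, with log2 fold changes of -1.03 (SE 0.48) at 7d, -1.03 (SE 0.48) at 14d and -1.07 (SE 0.48) at 20d. ssc-miR-148b-3p also accounted for 3, with -1.98 (SE 0.74) at 1d, -2.11 (SE 0.89) at 7d and -1.96 (SE 0.90) at 14d. The others were ssc-miR-148b-5p at 1d and 20d and ssc-miR-152 at 17d. Without minipig 3 the count was 0 and without minipig 2 it was 3.

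ssc-miR-148a-3p at 3d had a log2 fold change of the opposite sign to those of its partners. It was at 11.54 log2 CPM in minipig 1, from 781 counts, and at 12.42 in minipig 2, from 1435 counts. Each was the highest level of its animal, and that of minipig 1 lay within the pre-TBI range of all animals. Against pre-TBI its log2 fold change was 0.82 (SE 0.43, adjusted p = 0.631, edgeR), and with the minipig as a block 0.85 (adjusted p = 0.37). At the same time point ssc-miR-148a-5p had a log2 fold change of -1.88 (SE 0.92) and ssc-miR-148b-3p one of -1.70 (SE 0.86). Minipig 3 had no 3d library, but its pre-TBI libraries entered these values. Against the pre-TBI means of minipigs 1 and 2, ssc-miR-148a-5p differed by -0.0087 and -0.99 and ssc-miR-148b-3p by -0.13 and -0.86. ssc-miR-148a-3p differed by 0.95 and 0.99.

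The arms of miR-148a come from a single hairpin, and their ratio within a library does not depend on its scaling. At 3d the 3p arm held 92.1% of the miR-148a counts in minipig 1 (exact 95% interval 90.1% to 93.8%, counting error only) and 92.0% in minipig 2 (90.6% to 93.3%). These were the highest shares of the 24 libraries. The lowest were 40.3% at 10d of minipig 2 (33.5% to 47.3%) and 40.4% at 17d of minipig 1 (27.0% to 54.9%). Before TBI the shares were 89.7% and 80.4% in minipig 1, 87.3% and 55.2% in minipig 2, and 54.7% and 51.0% in minipig 3, at C7 and C1, and in each minipig the C7 share was the higher of both days.

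**Figure D3:**
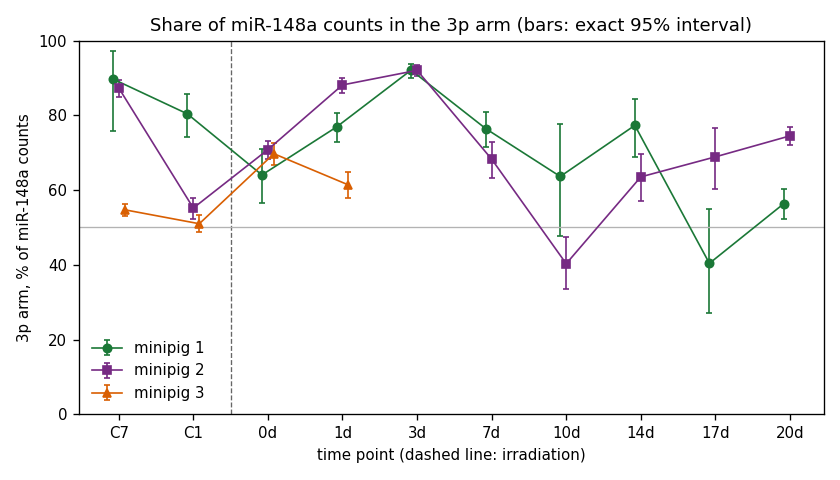
Share of miR-148a counts in the 3p arm (vertical axis, percent) at each time point (horizontal axis), with 1 point per library, 1 line per minipig and exact 95% binomial intervals for counting error. Both 3d libraries lie at 92% and those of 10d of minipig 2 and 17d of minipig 1 at 40%.

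Averaged over the 6 pre-TBI libraries, the log2 ratio of the 3p to the 5p arm was 1.40 ± 1.35 (SD, n = 6). The 10 Early libraries had a mean of 1.84 ± 1.08 (SD, n = 10) and the 4 Mid libraries one of 0.69 ± 0.95 (SD, n = 4). The mean was 0.29 ± 1.19 (SD, n = 2) in the Late libraries and 0.96 ± 0.83 (SD, n = 2) in the LR libraries. In these last 3 phases only minipigs 1 and 2 had libraries, whose pre-TBI mean was 2.02 ± 1.22 (SD, n = 4). Against pre-TBI of the same minipigs the differences were 0.44 at Early (p = 0.433), -1.33 at Mid (p = 0.167), -1.73 at Late (p = 0.333) and -1.06 at LR (p = 0.444) in a two-sided exact permutation test within minipigs, each with an adjusted p of 0.444 over the 4 phases. The smallest p the design allowed was 0.000741 at Early, 0.0556 at Mid and 0.111 at Late and LR, so Mid, Late and LR could not have passed 0.05. The differences at Mid were -1.23 in minipig 1 and -1.42 in minipig 2, those at Late were -3.05 and -0.40, and those at LR were -2.13 and 0.0061. At Early they were -0.56, 0.66 and 0.77 in minipigs 1, 2 and 3, so that the animals did not share a sign.

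Across the 24 libraries ssc-miR-148a-5p went with ssc-miR-148b-3p, an arm of another hairpin, more closely than with its own partner arm. Pearson's r of their log2 CPM was 0.89 (Spearman's rho 0.84), 0.83 without the 2 libraries farthest from the median and 0.84 after each minipig's mean was removed. For ssc-miR-148a-5p with ssc-miR-148a-3p, r was 0.22 (rho 0.20), and -0.01 within minipigs. Among all 84255 pairs of ssc-miRNAs the median r was -0.01 and the 95th percentile 0.752, and the libraries share 3 animals, scaling and uneven depth, so these are descriptions without a test.

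The arms of miR-148b had r = 0.70 (0.84 within minipigs, rho 0.56), and 0.65 without the 2 libraries farthest from the median. For ssc-miR-148a-5p with ssc-miR-148b-5p, r was 0.65 (0.78 within minipigs, rho 0.42), and 0.47 without the 2 farthest libraries. ssc-miR-148a-3p and ssc-miR-148b-3p, which share the seed, had r = 0.46 (0.31 within minipigs). ssc-miR-152 had r between -0.28 and 0.26 with the 4 others, and so levels of the 3 members that share the seed did not run closely together.

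**Figure D4:**
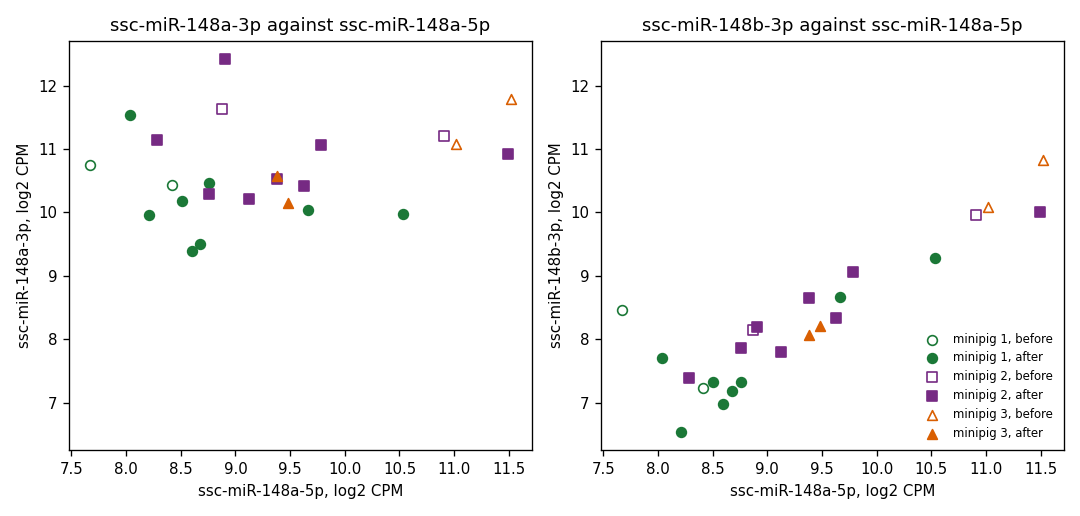
Level of ssc-miR-148a-3p (left) and ssc-miR-148b-3p (right) against that of ssc-miR-148a-5p, all in log2 CPM, with 1 point per library, open before and filled after TBI, coloured by minipig. The points on the right follow a line (r = 0.89) and those on the left are spread (r = 0.22).

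The 5 ssc-miRNAs whose levels were most like those of ssc-miR-148a-3p over the 24 libraries were ssc-miR-17-5p (r = 0.76, rho 0.79), ssc-let-7g (r = 0.69, rho 0.77), ssc-miR-22-3p (r = 0.69, rho 0.65), ssc-miR-16 (r = 0.68, rho 0.65) and ssc-miR-486 (r = 0.66, rho 0.62). Without the 2 libraries farthest from the median, r was between 0.58 and 0.69. ssc-miR-486 is also in the list of miRNAs abundant in red blood cells, but ssc-miR-144 and ssc-miR-451 of that list were not among these 5. Only ssc-miR-17-5p had an r above the 95th percentile of all pairs of ssc-miRNAs (0.752).

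Lists of miRNAs known from blood cells and organs were set beside the family, since plasma can hold RNA of each. The red blood cell list (3 of 3 rows, miR-144, miR-451 and miR-486) had a summed level of 13.14 to 16.43 log2 CPM before TBI, 13.18 to 15.81 at Early, 13.47 to 14.58 at Mid, 13.03 to 13.32 at Late and 13.29 to 14.29 at LR. None of the 3 passed the unadjusted p at Early. All 3 had log2 fold changes below 0 at Mid and at Late (median at Late -1.65), and ssc-miR-451 alone passed the unadjusted p, at Mid (-2.42, SE 0.89, adjusted p = 0.808) and at Late (-2.74, SE 1.26, adjusted p = 0.192). The white blood cell and platelet list (6 rows, both arms of miR-126 and miR-142, miR-150 and miR-191) ran from 13.53 to 14.47 before TBI and 13.55 to 16.23 at Early. It was at 12.33 to 13.70 at Mid, 11.66 to 12.86 at Late and 12.76 to 13.61 at LR. Both Late libraries lay below its pre-TBI range. In each phase 1 of the 6 rows passed the unadjusted p and 0 the adjusted p (edgeR). ssc-miR-126-5p was higher at Early (0.83, SE 0.36, 18.7% of all passed) and at LR (1.75, SE 0.51, 5.6%). ssc-miR-191 was lower at Late (-2.11, SE 0.78, 22.6%), and 1 row was lower at Mid (5.35%). In the fit of single time points, 2 rows of this list were called as higher at 3d (1.22% of all, edgeR, adjusted p). There 1 row was called as lower at 17d (4.87% of all) and 1 as higher at 20d (0.73% of all). The part of this list in the family's values was not tested, nor was that of the red blood cell list.

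The liver list (7 rows) had a summed level of 12.57 to 13.07 log2 CPM before TBI, 12.62 to 13.45 at Early, 12.23 to 13.48 at Mid, 12.31 to 12.40 at Late and 13.52 to 13.71 at LR. The summed level of both LR libraries lay above its pre-TBI range. Of the 7 rows, however, 4 had a log2 fold change above 0 at LR and 3 one below 0 (median 0.20). The unadjusted p was passed by ssc-miR-192 (1.48, SE 0.45, adjusted p = 0.337, edgeR) and ssc-miR-122 (-1.39, SE 0.52, adjusted p = 0.535), as against 5.6% of all ssc-miRNAs, and the adjusted p by none. In the fit of single time points, which held the same 2 libraries as 20d, ssc-miR-192 was called as higher (1.48, SE 0.30, adjusted p = 0.0302, edgeR), as 0.73% of all were called. The pancreas list (2 rows) had a range of 7.73 to 9.15 in the pre-TBI libraries and 8.59 to 9.61 in the Early libraries. It was at 8.65 to 9.01 at Mid, 8.79 to 9.36 at Late and 9.03 to 9.22 at LR. At Late ssc-miR-217 passed the unadjusted p (1.15, SE 0.46, adjusted p = 0.173, edgeR), as did 22.6% of all, and ssc-miR-216 did not (-0.04, SE 0.44). With thinned counts 0 of these rows passed it at Late. Of the rows in these lists only ssc-miR-217 had 0 counts in a library used, and miR-223 and miR-375 had no row. The part of liver and pancreas was not tested.

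The relatives with a shifted seed were ssc-miR-130a, ssc-miR-130b and ssc-miR-301. None of the 3 passed an unadjusted p of 0.05 at Early (median log2 fold change -0.24 against 0.02 over all ssc-miRNAs), Mid or LR. At Late all 3 passed it as higher, as did 15.6% of all ssc-miRNAs, with a median of 1.67 against 0.08 over all. At the adjusted p 1 of them rose, as did 3.89% of all, which was ssc-miR-130b (1.31, SE 0.36, adjusted p = 0.0403, edgeR). ssc-miR-130a was at 1.87 (SE 0.62, adjusted p = 0.0881) and ssc-miR-301 at 1.67 (SE 0.76, adjusted p = 0.192). With library size scaling in place of TMM, 2 of the 3 passed the unadjusted p as higher (9.25% of all) and 0 the adjusted p (2.43% of all). The same counts held with the minipig as a block (13.9% and 3.16% of all). With thinned counts 1 of the 3 passed the unadjusted p as higher (10.5% of all) and 0 the adjusted p (1.7% of all). Their summed level at Late, 10.09 to 11.41 log2 CPM, overlapped that before TBI, 8.64 to 10.68.

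A list of other miRNAs known to repress DNA methyltransferase genes had 8 rows (miR-29a, b and c, miR-101, both arms of miR-143, miR-185 and miR-342). Rows were taken by number, so both arms of miR-143 were included, whether or not each represses these genes. Of the 8, 2 were lower at the unadjusted p at Early, as were 13.6% of all ssc-miRNAs. None passed the adjusted p in the edgeR fit as planned, while DESeq2 called 2 as lower (8.09% of all in either direction). edgeR called 2 as lower with library size only (3.16%), RLE (2.92%), the largest row left out (3.66%) and only the 2 groups compared (9.25%). It also called 2 without minipig 2, where the share is not given here. It called 0 with the block, C7 only, C1 only, thinned counts, and without minipig 1 or 3. The 2 at the unadjusted p at Early, named after their values were seen, were ssc-miR-29b (-1.51, SE 0.39, adjusted p = 0.0549) and ssc-miR-29c (-1.36, SE 0.35, adjusted p = 0.0549). In the fit of single time points, 1 row of the list was called as higher at 3d (1.22% of all, edgeR, adjusted p). At 3d 2 rows were lower at the unadjusted p (8.52% of all in either direction). At Late 3 were higher at the unadjusted p (15.6% of all), with a median of 0.95 against 0.08 over all, and 1 rose at the adjusted p (3.89% of all), which was ssc-miR-101 (1.65, SE 0.48, adjusted p = 0.0482, edgeR), also named after its value was seen. No member of this list passed the adjusted p at Late with library size scaling. ssc-miR-143-3p was at 0.93 (SE 0.42, adjusted p = 0.192), ssc-miR-185 at 0.97 (SE 0.55, adjusted p = 0.291) and ssc-miR-342 at -0.66 (SE 0.46, adjusted p = 0.387) at Late. Their summed level was 11.62 to 12.34 log2 CPM before TBI, 11.66 to 12.69 at Early and 12.59 to 12.80 at Late, where both libraries lay above the pre-TBI range. The family's own summed level, 11.14 to 13.11 before TBI and 11.56 to 12.28 at Late, did not.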

How the data were processed

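Plasma small RNA libraries were made with the TruSeq small RNA kit. According to the study's methods, the authors trimmed reads with Cutadapt, mapped them first to the ssc5 pig assembly (Bowtie2 2.2.3.0), next to miRBase entries, and counted ssc-miRNAs with miRDeep2. The deposited values are raw counts per ssc-miRNA and library, without normalization and without molecular identifiers, so that intervals cover counting error only. How reads that match several members were assigned is not given in the sources used here, so counts of near-identical miRNAs may be uncertain. No ssc-miRNA had counts identical to those of a member.

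The members and lists were chosen with earlier results of these data known. Libraries under 1000 counts were left out, a limit set with the totals known. Animal and day came from the labels, and the phases from the study. Levels are log2 CPM with TMM scaling and a prior count of 2. Groups were compared by the quasi-likelihood method of edgeR 4.0.16 (R 4.3.3) with TMM, CPM above 0.5 in at least 3 libraries (all 411 ssc-miRNAs passed), 5 phase groups in one fit and no term for the animal. Single time points used 9 groups, and C1 against C7 used 10. P values were adjusted over all 411 ssc-miRNAs by the Benjamini-Hochberg method and called under 0.05. SE is the log2 fold change over the square root of F. The common biological coefficient of variation was 0.496. The log2 ratio of the arms used 0.5 added to both counts and a two-sided exact permutation within minipigs (scipy 1.17.1).

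Libraries of the same minipig are paired by design. Their deviations from phase means had a mean r of 0.169 over 78 pairs of the same minipig and -0.10 over 130 pairs of different minipigs. No 2 libraries agreed within sampling noise (smallest chi-square per degree of freedom 5.17 over 276 pairs). Every member was named, with the 5 ssc-miRNAs most like the most abundant member and up to 3 of each list. DESeq2 1.42.0, other scalings, filters, baselines, thinning, the block and left-out libraries were tried as alternatives. The edgeR and permutation scripts were tested on simulated data.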

Additional observations from a re-analysis of the deposited data

How the results depend on the processing

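The limits are 3 animals, 2 of them after 1d, 2 libraries at Late and at LR, and libraries of 24341 counts in which a member can hold 4 counts. No member was called in the edgeR fit as planned, so a change of sign below concerns values that were not called, and its cause was not tested. No member was called at Mid, LR or C1 against C7 under any alternative tried. The alternatives without the C7 library of minipig 1, without the pre-TBI libraries of minipig 3, and with thinning and the block together were chosen after the data were seen.

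Percentages in brackets are the share of all ssc-miRNAs passing in either direction under the same setting. At Early the number of members called at an adjusted p of 0.05 was 0 (0%). It was 1 with library size only (3.16%), with DESeq2 size factors (RLE) (2.92%), with thinned counts (0.487%) and with the largest row left out (3.66%). It was 2 without the C7 library of minipig 1 (6.57%), and 3 with DESeq2 (8.09%) and when the fit held only the 2 groups compared (9.25%). At the unadjusted p it was 3 (18.7%), and 0 to 3 without replicate 1, 2 or 3. It was 0 without minipig 3 (8.52%), and 1 without the pre-TBI libraries of minipig 3 (15.6%). At Late it was 0 at the adjusted p (4.38%). It was 1 (ssc-miR-152) with C1 only as the baseline (5.84%) and without the C7 library of minipig 1 (8.76%). At the unadjusted p at Late it was 1 (22.6%). It was 0 with C7 only (9.25%), with only the 2 groups compared (9.49%) and without the pre-TBI libraries of minipig 3. It was 0 to 1 without replicate 1, 2 or 3 (0 without minipig 2 or 3).

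At Mid the unadjusted count was 1 (5.35%). It was 0 with library size only, RLE, the stricter filter, C7 only, C1 only, thinned counts and the largest row left out. It was also 0 without the C7 library of minipig 1 or the pre-TBI libraries of minipig 3. Without replicate 1, 2 or 3 it was 0 to 3 (3 without minipig 2, 0 without minipig 1 or 3). At LR the unadjusted count was 0 (5.6%). It was 1 with C7 only (7.79%), DESeq2 (14.2%), RLE (6.33%), the stricter filter (5.17%) and the largest row left out (5.37%). It was also 1 with library size only (6.57%), only the 2 groups compared (4.62%), thinned counts with the block and without the C7 library of minipig 1. It was 2 with thinned counts (6.33%), and 0 to 3 without replicate 1, 2 or 3 (3 without minipig 1). For the counts of 3 without a minipig at Mid and LR, the share of all ssc-miRNAs is not given here. For LR against Late the counts were 0 adjusted (0.73%) and 1 unadjusted (32.1%), and with DESeq2 1 adjusted (16%) and 2 unadjusted. Without replicate 1, 2 or 3 the unadjusted count was 0 to 2 (0 without minipig 1, 2 without minipig 2). For single time points DESeq2 had 1 adjusted (2.77% of all its tests) and 19 unadjusted (16.1%) against 0 and 9 with edgeR. Leaving out a replicate gave 0 to 9 unadjusted.

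With the minipig as a replicate block, the log2 fold change of ssc-miR-148a-5p turned to 0.20 at Mid and 0.57 at Late and that of ssc-miR-148b-3p to 0.020 at Late. With thinned counts and the block, ssc-miR-148a-5p was at 0.36 at Mid and 0.73 at Late and ssc-miR-152 at -0.15 at Mid. The replicate block changed no call of a member at the adjusted p. At Early it gave 2 members at the unadjusted p in place of 3 (without ssc-miR-148a-5p), where 22.4% of all ssc-miRNAs passed. At Late, with the block, 0 in place of 1 relative with a shifted seed passed the adjusted p. ssc-miR-148b-5p at Mid turned to 0.0078 with C1 only, 0.043 with DESeq2 and 0.19 with thinned counts, and at Late to -0.16 with C7 only, -0.048 with the largest row left out, -0.28 with library size only and -0.067 without the C7 library of minipig 1. ssc-miR-148a-3p turned to 0.024 at Early with C1 only and to 0.18 for LR against Late with library size only, and ssc-miR-152 at Mid to -0.037 with C7 only. Without the pre-TBI libraries of minipig 3, ssc-miR-148a-5p was at 0.53 at Mid and 0.35 at Late, ssc-miR-148b-3p at 0.035 at Late, and ssc-miR-148b-5p at 0.29 and ssc-miR-152 at -0.078 at Mid.

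Without replicate 1, 2 or 3 in turn, these values changed sign. At Early, ssc-miR-148a-3p ran from -0.62 to 0.020 (without minipig 3). At Mid, ssc-miR-148a-5p ran from -2.12 to 0.53 and ssc-miR-148b-5p from -1.04 to 0.28 (both highest without minipig 3, with 0.23 without minipig 1 for the latter), and ssc-miR-152 from -0.079 (without minipig 3) to 0.55. At Late, ssc-miR-148a-5p ran from -1.57 to 0.36 and ssc-miR-148b-3p from -1.49 to 0.035 (both highest without minipig 3), and ssc-miR-148b-5p from -2.24 (without minipig 1) to 0.98. At LR, ssc-miR-152 ran from -1.10 to 0.50 (without minipig 1), and for LR against Late ssc-miR-148a-3p ran from -0.17 to 0.19 (without minipig 2). The log2 ratio of the miR-148a arms at Early turned to -0.17 with C7 only as the baseline, and at LR it ran from -2.13 to 0.0061 (without minipig 1). With no replicate block its adjusted p was 0.40 to 0.472.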
